A study of Homo sapiens with 18 samples.

Results

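The HOX cluster genes were taken as every gene whose symbol is HOX followed by A, B, C or D and a number, which gave 39 of the 28395 genes tabulated, and 38 of these are described. Their RNA and the open chromatin around them were compared in 3 lines made from K562, a human chronic myelogenous leukemia cell line. V-K562 cells are the control, which makes almost no BASP1, B-K562 cells express wild-type BASP1 (wtBASP1), and G-K562 cells express BASP1-G2A, a mutant that cannot be N-myristoylated. BASP1 is a transcriptional corepressor, and the lines differ in whether it is expressed and can carry its lipid. Each line is 1 pool of cells, so an effect of BASP1 or its lipid cannot be told apart from other differences between pools. The paper describes the stably transfected K562 derivatives as pools kept under selection, and it lists V-K562 apart from the parental K562 line. Values are therefore averages over cells. A change in the share of cells that express a gene cannot be told apart from a change in RNA per cell. Each line had 3 biological replicates in RNA-seq and 3 in ATAC-seq, labelled 1 to 3.

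HOX genes encode homeodomain transcription factors that give cells their position along the body axis. In mammals they lie in 4 clusters, and the order of the genes along each cluster follows the order in which they are switched on, from the early, anterior genes with low numbers to the late, posterior genes with high numbers. Silent clusters are held by Polycomb complexes and active ones by MLL complexes, retinoic acid is a classical inducer of the anterior genes, and PBX and MEIS proteins bind DNA together with HOX proteins. In blood, HOX genes are expressed in early progenitors and are often high in leukemia.

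RNA values are normalized counts, whole numbers as deposited, and the sums of all genes ran from 32074895 to 33229588 per library. The V-K562 libraries appear in both tables, 1.02-fold higher in the table with G-K562, and the comparisons of B-K562 and of G-K562 with V-K562 share these 3 controls. BASP1 itself was listed at 7, 5 and 7 in V-K562, 6849, 6618 and 6189 in B-K562 and 9323, 12538 and 8124 in G-K562, so the mutant was also the higher of both BASP1 forms, by 0.56 on the log2 scale. Each ATAC-seq library had between 47111 and 55570 peaks. The erythroid character of K562 moved with the lines: of 12 erythroid markers, all 12 were higher in B-K562 at an adjusted p of at most 0.05 and 3 of these at least 2-fold, while 11 were lower in G-K562 and 9 of these at least 2-fold. Over all genes tested, 38.6% were higher in B-K562 on that rule and 6.46% at least 2-fold. In G-K562, 33.3% were lower and 10.3% at least 2-fold. HBG2, a fetal globin, was at 37150, 41363 and 34612 in V-K562, 62047, 61065 and 58217 in B-K562 and 5396, 5597 and 5347 in G-K562. Of the defining markers of other cells, CD2, MS4A1, CD79A and CSF1R reached no value above 10, and LYZ, a monocyte enzyme, was called higher in G-K562. Of 3 T cell markers tested, 2, CD3D and CD3G, were called lower in both lines, with sums over the 4 markers from 448 to 608 per V-K562 library, from 203 to 206 for B-K562 and from 186 to 255 for G-K562. CD3E went the other way, with log2 changes of 0.59 in B-K562 (limma adjusted p = 0.0595) and 0.77 in G-K562 (limma adjusted p = 0.019). The B cell marker PAX5 was called lower in B-K562. The fibroblast collagen COL3A1 stood at 575 in B-K562 replicate 1 against 4 and 2 in the other two. Sums over the 4 fibroblast markers ran from 1551 to 1893 for V-K562, from 905 to 1783 for B-K562 and from 1278 to 1399 for G-K562. The part of the erythroid shift, of these markers and of that library in the HOX results was not tested, and values without that library are given where they change a call.

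The sequences printed here are those of some of the open regions that the chromatin results turn on, from GRCh38, plus strand. Regions are numbered along the chromosome within each cluster, and each stretch lies within 300 bases centred on a peak summit, less any part in an untranslated exon. Capitals mark the fixed letters of 4 motifs searched on both strands: a pair of GNTCA half-sites for retinoic acid receptors with 6 bases between them, TGATNNAT, a joint HOX and PBX site, AGATAA for GATA factors and CCNNNAG followed after 2 bases by GGC, the core of a CTCF site.
HOXA region 3, in HOXA3, chr7:27113419-27113624: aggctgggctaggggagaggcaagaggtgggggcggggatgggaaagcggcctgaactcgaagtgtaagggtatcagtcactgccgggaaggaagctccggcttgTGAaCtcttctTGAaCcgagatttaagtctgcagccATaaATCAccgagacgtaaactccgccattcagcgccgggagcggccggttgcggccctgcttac
HOXA region 4, in HOXA3, chr7:27115147-27115446: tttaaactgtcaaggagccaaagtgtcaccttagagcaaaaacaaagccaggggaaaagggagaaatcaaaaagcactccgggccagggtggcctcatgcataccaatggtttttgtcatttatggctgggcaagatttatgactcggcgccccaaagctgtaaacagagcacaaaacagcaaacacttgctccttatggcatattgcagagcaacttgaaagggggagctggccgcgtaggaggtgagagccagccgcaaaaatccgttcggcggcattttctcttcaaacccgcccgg
HOXD region 9, in HAGLR, chr2:176174987-176175286: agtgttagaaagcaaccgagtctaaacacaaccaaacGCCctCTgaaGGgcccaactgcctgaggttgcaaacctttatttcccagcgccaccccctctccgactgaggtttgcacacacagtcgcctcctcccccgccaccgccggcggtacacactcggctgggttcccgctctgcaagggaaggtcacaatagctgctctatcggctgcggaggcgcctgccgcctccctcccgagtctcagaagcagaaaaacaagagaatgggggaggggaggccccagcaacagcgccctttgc
HOXD region 10, in HAGLR, chr2:176178283-176178582: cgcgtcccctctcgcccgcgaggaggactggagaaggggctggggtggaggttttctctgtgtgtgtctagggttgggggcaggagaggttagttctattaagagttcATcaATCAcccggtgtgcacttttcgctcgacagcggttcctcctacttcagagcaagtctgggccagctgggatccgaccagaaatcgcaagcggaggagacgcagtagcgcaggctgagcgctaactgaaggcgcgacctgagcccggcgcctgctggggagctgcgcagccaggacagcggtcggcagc
HOXB region 6, before HOXB2, chr17:48546923-48547222: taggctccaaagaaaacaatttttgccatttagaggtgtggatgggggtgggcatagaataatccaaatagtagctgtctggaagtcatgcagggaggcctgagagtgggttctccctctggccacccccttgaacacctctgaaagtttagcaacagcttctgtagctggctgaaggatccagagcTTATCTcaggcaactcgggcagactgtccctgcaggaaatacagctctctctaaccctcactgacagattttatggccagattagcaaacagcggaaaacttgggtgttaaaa
HOXA region 3 holds the paired half-site motif and the HOX and PBX motif, as does HOXB region 7, which was not called in any comparison. HOXB region 10 and HOXD region 6, also called more open in G-K562, are not printed and hold none of the 4 motifs. Over all 85549 regions, windows of the same length held the paired half-sites in 0.969%, the HOX and PBX motif in 8.99%, the GATA motif in 23.4% and the CTCF core in 15.5%, against 3.23%, 11.3%, 16.1% and 21.0% of the 62 windows in the clusters. These are matches of letters, not sites shown to be bound.

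In V-K562 cells the HOX RNA came almost wholly from HOXB, whose genes held between 96.2% and 96.5% of the summed values of the 38 genes in each library. Per kilobase of exon, HOXB9 was the highest at 3282 ± 89.4 (SD, n = 3), before HOXB2 at 720 ± 48.9, HOXB4 at 604 ± 8.61, HOXB7 at 314 ± 38.9 and HOXB8 at 203 ± 9.95. HOXC9 at 171 ± 4.91 was the highest gene outside HOXB, and HOXB5, HOXB6, HOXB3, HOXC6, HOXC12 and HOXC10 followed. Neighbours in this order did not overlap between libraries, except HOXC12, from 15.3 to 22.4, and HOXC10, from 15.8 to 19.4. Of the 38 genes, 11 never passed 2 in any library, namely HOXA7, HOXA9, HOXA10, HOXA11, HOXA13, HOXB1, HOXD1, HOXD9, HOXD10, HOXD11 and HOXD12, and HOXD13 reached 3 at most. The same 6 genes, HOXB9, HOXB2, HOXB4, HOXB7, HOXB8 and HOXC9, led in this order in B-K562 and in G-K562. HOXB9 was at 2799 ± 54.7 and 3643 ± 104 per kilobase there, and HOXB2 at 1029 ± 11.5 and 1641 ± 47.9. In B-K562, HOXB8 and HOXC9 overlapped, as did HOXB6, HOXB5 and HOXB3 next to each other and, lower down, HOXC6, HOXC4 and HOXC12. In G-K562, HOXB3, HOXB5 and HOXB6 overlapped in the same way, and HOXA3 at 63.3 ± 4.37, which overlapped HOXC6, entered the leading 12.

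**Figure D1:**
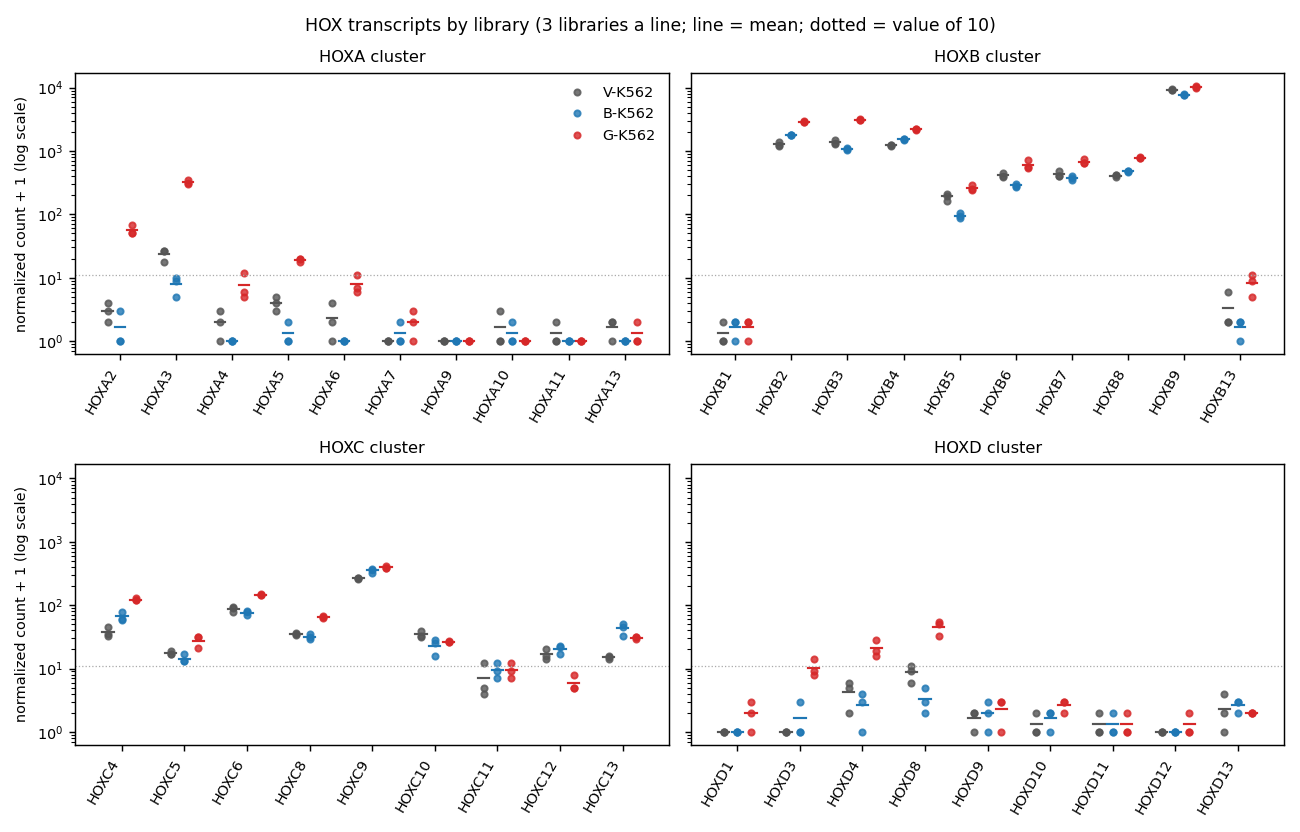
Normalized count plus 1 on a log axis for each of the 38 HOX genes described, in 4 panels by cluster, with 1 point a library, a short line at each mean (n = 3) and a dotted line at a value of 10. HOXB9, HOXB2, HOXB3 and HOXB4 lie at the top in all 3 lines, and HOXC9 lies above HOXB5 in each. In HOXA the G-K562 points lie highest and the B-K562 points lowest at HOXA3.

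B-K562 cells had less RNA of HOXA3, an anterior gene that patterns the neck and thymus. It stood at 24, 17 and 25 in V-K562 and at 4, 8 and 9 in B-K562, so that the groups did not overlap. Its log2 fold change on the scale of value plus 1 was -1.57 ± 0.347 (SE, limma adjusted p = 0.001). HOXA5, which was too low to be tested, was at 3, 4 and 2 in V-K562 and at 1, 0 and 0 in B-K562. The sum over the HOXA genes described was between 25 and 37 per V-K562 library and between 6 and 12 per B-K562 library.

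Of the 38 genes, 17 could be tested in this comparison, since they reached 10 in 3 or more libraries. Called means an adjusted p of at most 0.05 and a change of at least 2-fold: 1 HOX gene was called higher, HOXC13, and 1 lower, HOXA3, where 6.46% of all 14958 genes tested were called higher and 14.1% lower. HOXA3 entered the test through its V-K562 values alone, so its being lower is partly built into the filter, and it could not be tested where every library had to reach 10. It also fell short of 2-fold after quantile normalization (-0.86). HOXC13, the most posterior HOXC gene, known for its role in hair and nails, stood at 13, 13 and 15 in V-K562 and at 32, 45 and 49 in B-K562, a log2 change of 1.53 ± 0.240 (limma adjusted p = 5.35e-05).

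The HOXB genes moved both ways in B-K562 cells. Judged at an adjusted p of at most 0.05 and without the 2-fold limit, 3 of the 8 tested rose and 4 fell, where 38.6% of all genes tested were higher and 37.2% lower on that rule. HOXB2, which patterns the hindbrain, rose from 1352, 1220 and 1187 to 1776, 1814 and 1784, a log2 change of 0.52 ± 0.0574 (limma adjusted p = 1.98e-06). HOXB4, known for expanding blood stem cells, rose from 1192, 1211 and 1221 to 1533, 1508 and 1528 (0.33 on the log2 scale), and HOXB8, a gene of myeloid progenitors, by 0.26. HOXB5 changed most in this cluster, from 161, 194 and 207 to 85, 104 and 93, a log2 change of -0.98 ± 0.129 (limma adjusted p = 9.99e-06). Leaving out V-K562 replicate 1 or B-K562 replicate 2 brought HOXB5 past the 2-fold limit and so raised the genes called lower from 1 to 2. The other log2 changes were -0.33 for HOXB3, -0.52 for HOXB6 and -0.23 for HOXB9, while HOXB7, at 483, 395 and 389 against 406, 343 and 372, overlapped (-0.17, limma adjusted p = 0.12). Along the cluster, HOXB genes that rose and fell lay side by side, with HOXB2, HOXB4 and HOXB8 higher and HOXB3, HOXB5, HOXB6 and HOXB9 lower. These directions were the same after quantile normalization.

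In HOXC, 3 of 8 tested genes rose at an adjusted p of at most 0.05 and 1 fell. Over all genes tested, 38.6% were higher and 37.2% lower on that rule. Besides HOXC13, HOXC9 rose from 252, 263 and 263 to 377, 358 and 322, a log2 change of 0.44 ± 0.0854 (limma adjusted p = 0.000364). HOXC4 rose from 44, 33 and 31 to 78, 60 and 58, a log2 change of 0.85 ± 0.194 (limma adjusted p = 0.0013), and passed 2-fold after quantile normalization. HOXC10 fell from 31, 37 and 30 to 15, 27 and 24, at an adjusted p of 0.0489 by limma that rose to 0.2 without B-K562 replicate 1 and to between 0.0546 and 0.156 without any of 4 other libraries. HOXC5, HOXC6 and HOXC8 overlapped between the lines, with log2 changes of -0.31, -0.17 and -0.15 whose sign turned after quantile normalization, to 0.27, 0.30 and 0.36. HOXC4, HOXC5 and HOXC6 share 563 exon bases on the same strand, which is 25.9% of the exon length of HOXC5 and 25.1% of that of HOXC6, so that reads there cannot be split among them. No HOXD gene could be tested. HOXD8, the highest of them, was at 10, 5 and 8 in V-K562 and at 1, 4 and 2 in B-K562.

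In G-K562 cells HOXA3 moved the other way. It stood at 25, 17 and 25 in V-K562 and at 346, 315 and 303 in G-K562, a log2 change of 3.81 ± 0.170 (limma adjusted p = 7.45e-09). HOXA2, a hindbrain gene, stood at 3, 1 and 2 against 49, 66 and 49, and HOXA5, a gene of lung and trunk, at 3, 4 and 2 against 19, 17 and 19. Both pairs of groups lay far apart, with log2 changes of 4.26 ± 0.334 and 2.30 ± 0.344 (limma adjusted p = 6.04e-07 and 0.000106), and both genes entered the test through G-K562 alone. HOXA4 reached 4, 5 and 11 and HOXA6 10, 6 and 5, from at most 3 in V-K562, and from HOXA7 to HOXA13 no value passed 2. The sum over the HOXA genes described was between 389 and 430 per G-K562 library, against between 25 and 38 in V-K562.

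**Figure D2:**
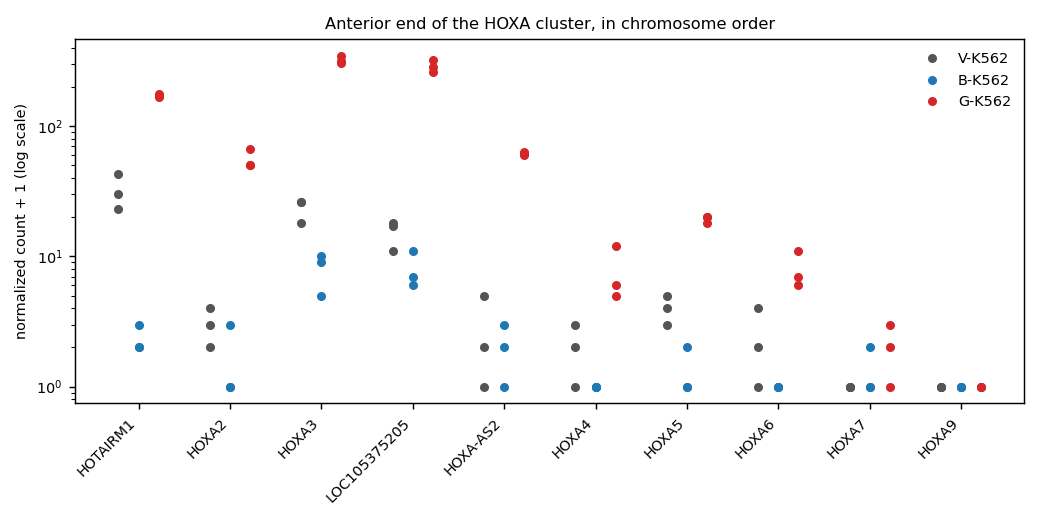
Normalized count plus 1 on a log axis for 7 HOXA genes and 3 noncoding transcripts of the anterior HOXA cluster, ordered by start position, with 1 point a library. G-K562 points lie above V-K562 up to HOXA6, B-K562 points lie below V-K562 at HOTAIRM1 and HOXA3, and HOXA9 is at 0 throughout.

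Of the 21 described HOX genes that could be tested, 9 were called higher in G-K562 and 1 lower, where 8.81% of all 15271 genes tested were called higher and 10.3% lower. The 9 were HOXA2, HOXA3, HOXA5, HOXB2, HOXB3, HOXC4, HOXC13, HOXD4 and HOXD8, and the 1 was HOXC12. Among them, HOXA2, HOXA5, HOXD4 and HOXC12 passed the filter through 1 line alone, and where every library had to reach 10, 5 were called higher and 0 lower. Of all 13724 genes tested under that stricter filter, 924 were called higher and 1009 lower. The median log2 change over the tested HOX genes was 0.87, against 0.003 over all genes tested.

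All 8 expressed HOXB genes were higher in G-K562 at an adjusted p of at most 0.05, where 33.5% of all genes tested were higher and 33.3% lower on that rule. HOXB2 stood at 1373, 1239 and 1211 against 2881, 3001 and 2837, a log2 change of 1.19 ± 0.0648 (limma adjusted p = 3.32e-08). HOXB3, which is expressed in blood stem cells, stood at 1289, 1341 and 1506 against 3060, 3066 and 3183, a log2 change of 1.17 ± 0.0676 (limma adjusted p = 5.2e-08). The other log2 changes were 0.84 for HOXB4, 0.46 for HOXB5, 0.53 for HOXB6, 0.67 for HOXB7, 0.94 for HOXB8 and 0.15 for HOXB9. HOXB9, at 9105, 9176 and 9574 against 10611, 10026 and 10281, had an adjusted p of 0.0252 by limma, which rose to between 0.0604 and 0.106 without V-K562 replicate 1 or 2 or G-K562 replicate 1 or 3. HOXB13, a prostate and tail gene at the far end of the cluster, was at 5, 1 and 1 in V-K562 and 4, 10 and 8 in G-K562 and could not be tested.

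In HOXC, 6 of 8 tested genes were higher in G-K562 at an adjusted p of at most 0.05 and 1 was lower. Over all genes tested, 33.5% were higher and 33.3% lower on that rule. HOXC4 stood at 45, 34 and 32 against 119, 118 and 128, a log2 change of 1.71 ± 0.168 (limma adjusted p = 3.79e-06), and HOXC6 and HOXC5, which share exon bases with it, changed by 0.74 and 0.63. The adjusted p of HOXC5, 0.0423 by limma, rose to between 0.0541 and 0.131 without any 1 of the libraries other than G-K562 replicate 1. HOXC8 and HOXC9 rose by 0.87 and 0.58. HOXC13, at 14, 13 and 15 against 30, 28 and 31, rose by 1.03 ± 0.225 (limma adjusted p = 0.00165) and fell below 2-fold without V-K562 replicate 2 or with 5 in place of 1 added to each value. HOXC12, its neighbour, went the other way, at 19, 13 and 15 against 4, 4 and 7, a log2 change of -1.49 ± 0.343 (limma adjusted p = 0.00235). HOXC10 was at 32, 38 and 31 against 25, 26 and 25 (-0.39, limma adjusted p = 0.104), and HOXC11, with no value above 11, was not tested.

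The HOXD cluster, nearly silent in V-K562, gave RNA of its middle genes in G-K562. HOXD8 stood at 10, 5 and 8 against 32, 50 and 53, a log2 change of 2.42 ± 0.307 (limma adjusted p = 2.92e-05). HOXD4 stood at 4, 1 and 5 against 27, 18 and 15 (2.38 ± 0.452, limma adjusted p = 0.000638), and HOXD3, which was not tested, at 0 in every V-K562 library against 7, 13 and 8. The remaining HOXD genes, HOXD1 and HOXD9 to HOXD13, stayed at 2 or below in G-K562. As a share of the summed values of the 38 genes, HOXB was between 93.9% and 94.2% per G-K562 library.

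The difference between the BASP1 forms was tested directly in a fit of all 9 libraries. Of 22 described HOX genes tested, 9 were called higher in G-K562 and 1, HOXC12, lower, where 17.4% of all 15521 genes tested were called higher and 12.5% lower. HOXA3 differed by 5.37 ± 0.255 on the log2 scale (limma adjusted p = 1.28e-10). All 8 expressed HOXB genes were higher at an adjusted p of at most 0.05, where 38.1% of all genes tested were higher and 40.5% lower on that rule, among them HOXB3, HOXB5, HOXB6 and HOXB9, which were lower than V-K562 in B-K562 and higher in G-K562, with HOXB3 at 1.5 ± 0.0617, HOXB5 at 1.44 ± 0.125 and HOXB6 at 1.05 ± 0.103 past 2-fold. For HOXC13 the difference was -0.49, with a 95% interval from -0.96 to -0.02 (limma adjusted p = 0.0514), and for HOXC9 it was 0.14, from -0.03 to 0.32 (limma adjusted p = 0.123). Neither passed the test, although HOXC13 did without B-K562 replicate 1 or V-K562 replicate 3, with adjusted p of 0.015 and 0.0491 by limma. It also passed after quantile normalization (-0.80, limma adjusted p = 0.00319), with 5 added to each value, with a value of at least 10 in every library and in a fit of the 6 B-K562 and G-K562 libraries (limma adjusted p from 0.0356 to 0.0436). HOXA2, HOXA5, HOXC8, HOXD4 and HOXD8 complete the list of genes called higher, and of both lines HOXA2, HOXA3, HOXA5, HOXC12, HOXD4 and HOXD8 reached 10 in 1 alone. HOXC8, at 1.01, fell below 2-fold without B-K562 replicate 1 or 2 or G-K562 replicate 2 (0.949, 0.997 and 0.984), and HOXB6 without G-K562 replicate 3 (0.93). Quantile normalization also took both below 2-fold, to 0.695 and 0.962, which left 7 genes called higher. Without B-K562 replicate 1, HOXC4 and HOXC5 passed 2-fold (1.01 and 1.04), as did HOXC5 without G-K562 replicate 1 (1.10).

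**Figure D3:**
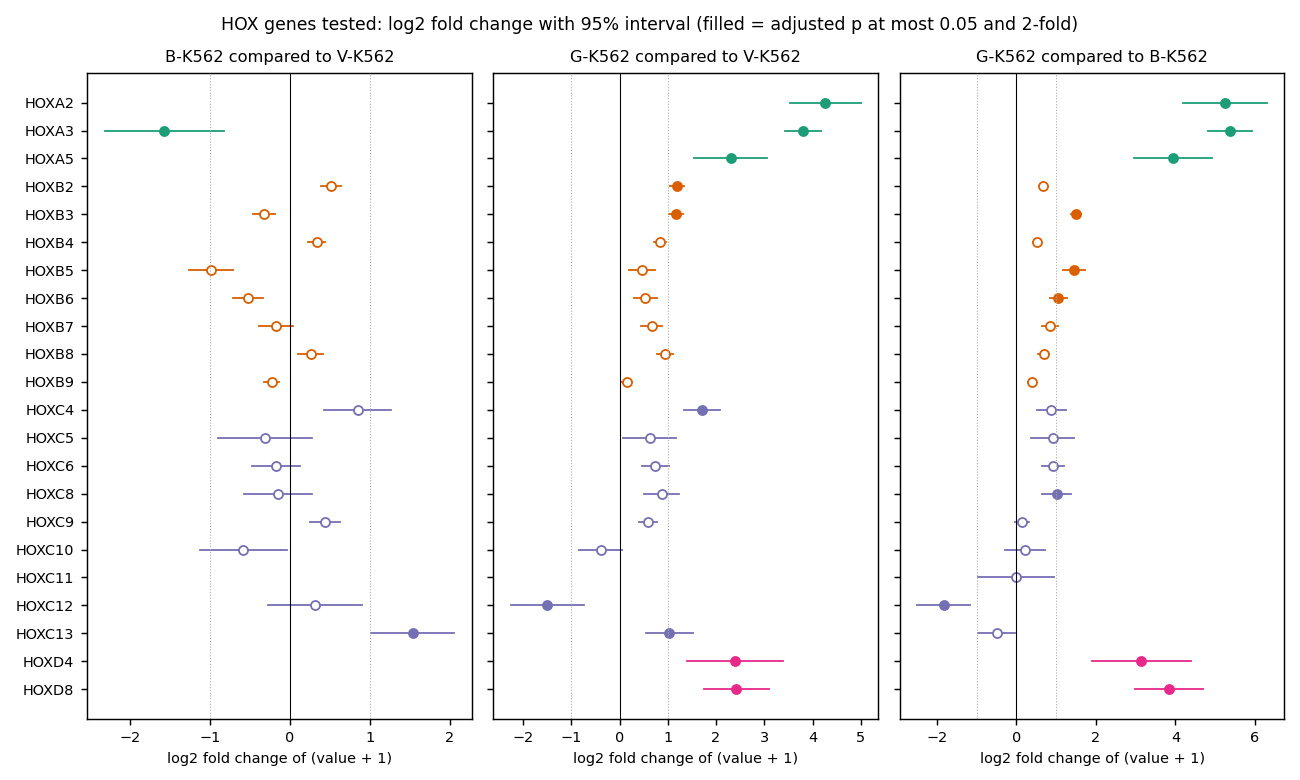
Log2 fold change of value plus 1 with its 95% interval for each described HOX gene tested, in 3 panels by comparison, colored by cluster, with filled points for an adjusted p of at most 0.05 and at least 2-fold and dotted lines at 2-fold. HOXA3 lies left of 0 in B-K562 and far right of 0 in G-K562, and the 8 HOXB genes lie on both sides in B-K562 and right of 0 in G-K562.

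Of 22 noncoding transcripts of the clusters, 3 could be tested in B-K562 and 6 in G-K562, of which 1 was called lower and 4 higher, in that order. Over all genes tested, 14.1% were called lower in B-K562 and 8.81% higher in G-K562. HOTAIRM1, a noncoding RNA of myeloid cells, was at 21, 41 and 28 in V-K562, 2, 1 and 1 in B-K562 and 176, 167 and 169 in G-K562, with log2 changes of -3.71 ± 0.401 and 2.47 ± 0.208 (limma adjusted p = 1.52e-06 and 1.09e-06). LOC105375205 and HOXA-AS2, both within HOXA3, stood at 259, 284 and 322 and at 60, 63 and 59 in G-K562, from at most 17 and 4 in V-K562. HAGLR in HOXD and HOXC-AS2 in HOXC were also called higher in G-K562 (1.90 and 2.76), and HOXB-AS1 was lower in B-K562 by 0.43 and higher in G-K562 by 0.57. HOXA-AS2, HAGLR and HOXC-AS2 passed the filter through G-K562 alone, and HOTAIRM1 entered the comparison of B-K562 through V-K562 alone, so these directions are partly built into the filter. HOTAIR and HOTTIP reached no more than a mean of 3.33 in any line. The counting is not stated to have used the strand, so reads on exon bases shared with an antisense partner cannot be told from that partner's. HOXA3 shares 1.65% of its exon bases with HOXA-AS2 and 5.67% with HOXA-AS3, and HOXB3 shares 1.3% with HOXB-AS1. For HOXA7 and HOXA-AS3 the share is 74.7%.

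Genes just outside the clusters differed in direction. Within 250 kb of HOXA, SKAP2 was at 1025, 1076 and 1112 in V-K562 and 720, 712 and 706 in B-K562 (-0.59), and rose by 0.23 in G-K562. CALCOCO2 beside HOXB and CALCOCO1 beside HOXC were called lower in B-K562, with log2 changes of -1.60 and -1.30, against -0.22 and -0.14 in G-K562. LNPK beside HOXD was called lower in G-K562 (-1.40), opposite to HOXD8 and HOXD4. The noncoding LOC101927166 beside HOXB rose from 15, 21 and 44 to 593, 424 and 745 in G-K562, a log2 change of 4.51 ± 0.320 (limma adjusted p = 2.61e-07), and was also called higher in B-K562, at 71, 47 and 59 (1.28 ± 0.321, limma adjusted p = 0.00252). LOC100240735 beside HOXC rose from at most 2 to 35, 47 and 38. SKAP1 was also called higher in G-K562, from 6, 2 and 7 to 11, 10 and 23, and both passed the filter through G-K562 alone.

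Of 10 genes of the PBX and MEIS family of HOX cofactors, 9 could be tested, of which 0 were called higher by limma and 2 lower in B-K562, against 1 and 0 in G-K562. At an unadjusted p under 0.05 the counts were 5 higher and 4 lower in B-K562 and 7 and 2 in G-K562. They were the same at an adjusted p of at most 0.05. On that rule 38.6% of all genes tested were higher and 37.2% lower in B-K562, and 33.5% and 33.3% in G-K562. Genes called were 6.46% higher and 14.1% lower in B-K562, and 8.81% and 10.3% in G-K562. PBX3, the 1 called higher, stood at 55, 38 and 37 in V-K562 and at 116, 129 and 106 in G-K562 (1.43). MEIS3 and PBX4 were called lower in B-K562 (-1.72 and -1.09) and were higher in G-K562 at 0.63 and 0.48. PBX2, the highest of the list, rose by 0.25 and 0.75. Of the 6 regulators upstream of HOX genes, CDX1 and CDX4 were at 0 in every library and RARB, a retinoic acid receptor that retinoic acid itself induces, was called higher in G-K562, from 28, 18 and 34 to 143, 148 and 165 (2.51 ± 0.216, limma adjusted p = 1.25e-06), with 0.08 in B-K562 (limma adjusted p = 0.8). RARA, the highest, rose by 0.48 and 0.22. Of 6 PRC2 genes, which place the Polycomb mark on silent HOX clusters, EZH1 was called lower in G-K562 (-1.22) and was at -0.76 in B-K562, and RBBP4, the highest, was at -0.36 in G-K562 (limma adjusted p = 0.000146). The PRC2 genes moved both ways: at an adjusted p of at most 0.05, 2 were higher and 2 lower in B-K562, and 2 higher and 4 lower in G-K562. Of 10 genes of the MLL complex and the opposing demethylases 0 were called against V-K562 by limma, with 6 higher and 2 lower at an adjusted p of at most 0.05 in B-K562 and 3 and 2 in G-K562. At an unadjusted p under 0.05 the counts were 6 higher and 2 lower in B-K562 and 3 and 2 in G-K562. The shares of all genes on the adjusted rule, for this list and PRC2, are those given for the cofactors. KDM6B, a demethylase that removes the Polycomb mark, was lower in B-K562 (-0.95) and at 0.26 in G-K562 (limma adjusted p = 0.0109, or 0.0564 without G-K562 replicate 1). KDM6A, which removes the same mark, was at -0.07 in B-K562 (limma adjusted p = 0.263) and lower in G-K562 (-0.97, limma adjusted p = 1.14e-07). ASH2L was the highest of that list.

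ATAC-seq, in which a transposase cuts accessible DNA, gave 62 merged regions in the clusters and 5 kb on each side, of 85549 in all: 11 in HOXA, 28 in HOXB, 13 in HOXC and 10 in HOXD. The value is the highest summit pileup of a library's peaks in a region, printed as deposited, and for testing it was scaled between libraries and set to 17, a low value, where a library had no peak. In HOXA the V-K562 libraries had 2, 3 and 3 peaks, the B-K562 libraries 4, 3 and 3 and the G-K562 libraries 8, 9 and 9. HOXD had 4 in each V-K562 library, 5 in each B-K562 library and 9, 8 and 8 in G-K562. HOXC went from 7, 7 and 8 in V-K562 through 8 in each B-K562 library to 10, 10 and 9 in G-K562, and in HOXB all libraries had between 15 and 19. HOXA, HOXC and HOXD had more peaks in every G-K562 library than in any V-K562 or B-K562 library.

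No region of the clusters was called in B-K562 against V-K562 by limma, of 32 tested, where 1.53% of all 52204 regions tested were called more open and 6.16% more closed. At an unadjusted p under 0.05, 8 were higher and 2 lower, and at an adjusted p of at most 0.05, 4 and 1, against 8.57% and 16.6% of all regions tested. With missing peaks set to 10, the lowest pileup of all, 2 were called more open, HOXA region 8 and HOXD region 6. HOXA region 8, between HOXA7 and HOXA9 at chr7:27160702-27161387, had no peak in V-K562 and pileups of 28, 22 and 23 in B-K562, and 38, 33 and 36 in G-K562. HOXB region 6 before HOXB2 was higher in B-K562, at 96, 93 and 83 against 62, 52 and 62 (0.47, limma adjusted p = 0.0393), as was the region at the HOXB9 start. The 1 region lower on that rule was HOXB region 13, in an intron of HOXB3. It was at 121, 122 and 107 in B-K562 against 136, 149 and 139 in V-K562 (-0.43, limma adjusted p = 0.0139). RNA of HOXB2, HOXB9 and HOXB3 changed by 0.52, -0.23 and -0.33 in B-K562.

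**Figure D4:**
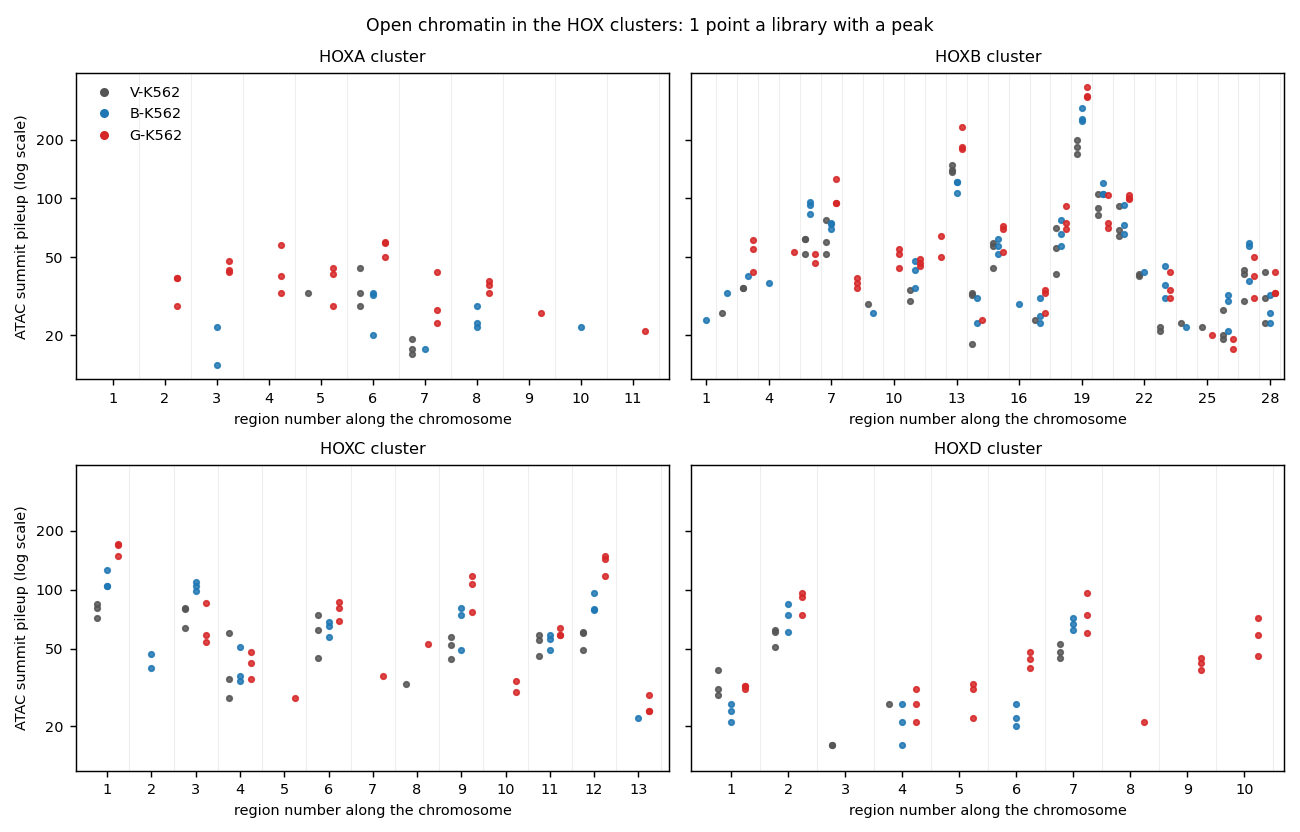
Summit pileup as deposited, on a log axis, for 61 of the 62 regions of the 4 clusters, numbered along the chromosome, with 1 point for each library that had a peak. In HOXA and HOXD several regions hold G-K562 points alone, while most HOXB regions hold all 3 lines.

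In G-K562 against V-K562, 6 regions of 42 tested were called more open and 1 more closed, where 2.86% of all 54213 regions tested were called more open and 13.1% more closed. All 6 lacked a peak in every V-K562 library and so entered the test through G-K562 alone, among 11 tested regions of that kind, and their fold changes rest on the value put in for missing peaks. HOXA region 3 (chr7:27113396-27113729, in an intron of HOXA3, 276 bases after a HOXA3 start) was at 48, 42 and 43 in G-K562, with peaks of 22 and 14 in B-K562 replicates 1 and 3. HOXA region 4 (chr7:27115169-27115503, in the same gene, within LOC105375205 as the gene tables place it) was at 33, 40 and 58, with no peak in B-K562. HOXB region 10 (chr17:48576768-48577046, in an exon of HOXB4) was at 52, 55 and 44. HOXD region 6 (chr2:176130209-176130789, in the HOXD8 exon, 119 bases after its start) was at 40, 44 and 48 in G-K562 and 22, 20 and 26 in B-K562. HOXD region 9 (chr2:176174989-176175293) was at 39, 42 and 45 and HOXD region 10 (chr2:176178257-176178763) at 59, 46 and 72, both within HAGLR, between HOXD3 and HOXD1. With scaling done within bins of GC content HOXD regions 6 and 9 were no longer called, and with mean pileup HOXA region 4 and HOXD region 9 were not. Leaving out G-K562 replicate 1, 2 or 3 ended all 6 calls, since the 2 peaks left are too few for a region to be tested, and without replicate 1 HOXC region 12 was called instead.

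Across the clusters 7 regions had a peak in all 3 G-K562 libraries and in no other library, 2 in HOXA, 2 in HOXB and 3 in HOXD, while no region was of that kind for V-K562 or for B-K562. Over all 85549 regions the share was 1.75% for G-K562, 1.78% for V-K562 and 0.739% for B-K562. Among the 21 cluster regions that had peaks in each of the 6 V-K562 and G-K562 libraries, 0 were called by limma, with a median log2 change of 0.13. Those higher in G-K562 at an adjusted p of at most 0.05 were HOXC regions 1, 9 and 12 and HOXB region 19, with HOXC region 9 at 0.60 (limma adjusted p = 0.0439). Over all regions tested, 15.9% were higher and 26.0% lower on that rule. HOXC region 1, at the HOXC13 start, was at 72, 85 and 81 in V-K562 and 171, 170 and 149 in G-K562 (0.68 ± 0.115, limma adjusted p = 0.00287). HOXC region 12, in introns of HOXC4 and HOXC6, was at 61, 60 and 49 against 117, 143 and 148 (0.90 ± 0.149, limma adjusted p = 0.00275). HOXB region 19, at the HOXB9 start, was at 198, 169 and 184 against 329, 333 and 371 (0.55 ± 0.0909, limma adjusted p = 0.00262). HOXB9 and HOXC13 RNA, given earlier, rose by 0.15 and 1.03 there. With no scaling beyond equal tags, the HOXC13 region and HOXC region 12 passed 2-fold and 10 regions were called more open.

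HOXB region 6 (chr17:48546852-48547338), 1964 bases before a HOXB2 start, was the 1 region called more closed in G-K562, at 62, 52 and 62 in V-K562 and 52, none and 47 in G-K562 (-1.04 ± 0.355, limma adjusted p = 0.0495). That call was lost with GC bins, equal tags, the lower value for missing peaks, mean pileup, all regions tested, or V-K562 replicate 1, 2 or 3 or G-K562 replicate 2 left out, and HOXB2 RNA was higher in G-K562.

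In G-K562 against B-K562, 5 of 43 regions tested were called more open and 1 more closed, where 4.28% of all 60181 regions tested were called more open and 8.6% more closed. Of the 5, 4 had no peak in B-K562, and without G-K562 replicate 1, 2 or 3 the number called more open was 0, 2 and 1. The 5 were HOXA regions 3 and 4, HOXB region 10 and HOXD regions 9 and 10, and the 1 was HOXB region 6, at -1.51 (limma adjusted p = 0.00489). HOXA region 3, at 1.02, fell below 2-fold without B-K562 replicate 2 or 3. With scaling within GC bins HOXA region 3 and HOXD region 9 were no longer called (0.923 and 0.982), and HOXA region 5 was called more open. At an adjusted p of at most 0.05 alone, 15 regions were more open and 4 more closed, against 12.3% and 15.6% of all regions tested. HOXD region 6 differed by 0.72 (limma adjusted p = 0.00567). Log2 changes of accessibility rose with the GC content of a region over all regions (Spearman's rho across regions 0.413 for B-K562 and 0.476 for G-K562 against V-K562), and the cluster regions had a median GC content of 60.3% against 52.5% and 52.7% over those tested, whose part in these results was not tested beyond the GC bins given here.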

How the data were processed

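RNA-seq and ATAC-seq libraries came from 3 replicates of each line. The authors aligned reads to GRCh38 with STAR or BWA-MEM, removed duplicates, counted read pairs on RefSeq genes with Subread and called ATAC-seq peaks with MACS2. The deposited RNA values are a signal on a normalized count scale, rounded to whole numbers, in 2 tables, and the deposited ATAC-seq values are pileups (signal) per peak. Since they are not raw counts, no count model was used. Versions and the strand setting of counting are not given in the sources used here. Columns with the authors' own means, fold changes, standard errors and p-values were not used.

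Values were tested as log2(value + 1) with limma 3.58.1 in R 4.3.3, trend and Benjamini-Hochberg adjustment over all genes that reached 10 in at least 3 libraries. B-K562 and G-K562 were each compared with V-K562 within their own table, and with each other in a fit of all 9 libraries, with B-K562 values multiplied by the ratio of V-K562 values between the tables. Overlapping peaks were merged into 85549 regions, pileups were scaled by trimmed means, missing peaks were set to 17, and regions with 3 or more peaks were tested. The procedure was tested on simulated data. Some genes and regions are not reported here, but all stayed in the fits and in the counts over all features. Levels were divided by exon length in kilobases. Named genes were the HOX genes described, the genes called in the lists and near the clusters, and each list's highest gene. KDM6A, KDM6B, CD3E, HBG2, COL3A1, HOXA-AS3 and EVX2 were named after their values were seen. Members and lists were chosen with earlier results of these data known. Depth in reads is unknown, so no counting interval is given. The p-values measure the spread between replicates of 1 pool per line.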

Additional observations from a re-analysis of the deposited data

Results flagged for a closer look

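Among the HOX genes described, HOXA3 changed at least 2-fold in opposite directions in the lines with wild-type and mutant BASP1, with HOXB3, HOXB5, HOXB6 and HOXB9 doing so by less. HOXA3 was at -1.57 in B-K562 and 3.81 in G-K562 on the log2 scale, both against V-K562, and the tested difference between the lines was 5.37 (lower in 3 of 3 B-K562 libraries and higher in 3 of 3 G-K562 libraries than in every V-K562 library). No B-K562 library reached 10 at HOXA3, which passed the filter through the higher lines, and after quantile normalization its change in B-K562 was -0.864, short of 2-fold.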

How the results depend on the processing

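Calls of HOX genes depended mainly on the filter and the 2-fold limit. In B-K562 against V-K562, genes called lower went from 1 to 3 with no filter on low values or in a fit of all 9 libraries (adding HOXA5 and HOXD8) and to 0 with a value of at least 10 in every library, quantile normalization gave 2 higher and 0 lower, and adjusted p alone gave 6 and 6. In G-K562 against V-K562, a value of at least 10 in every library gave 5 higher and 0 lower and adjusted p alone 19 higher, and against B-K562 these were 4, 0 and 17. Quantile normalization turned HOXC5 (0.271), HOXC6 (0.305) and HOXC8 (0.357) in B-K562 against V-K562 and HOXC10 (-0.129) between the BASP1 lines, and moved the split over all genes in B-K562 from 31.4% to 47.9% higher among calls. These 4 values missed the test before and after, and the cause was not tested.

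For regions in B-K562 against V-K562, missing peaks at the lowest pileup gave 2 more open and adjusted p alone 4 more open and 1 more closed. In G-K562 against V-K562, no scaling gave 10 more open and 0 more closed, the lowest pileup 11 more open, adjusted p alone 15 and 2, a peak in every library 0 and 0, and GC bins, mean pileup or a peak in at least 1 library 0 more closed. Against B-K562, more open regions were 8 with no scaling, 11 with the lowest pileup, 3 with mean pileup and 15 with adjusted p alone (4 more closed), a peak in every library gave 0 and 0, and extending spans by 50 kb gave 2 more closed. With no scaling, the share of more open regions among all calls was 33.9% in place of 19.9% in B-K562 and 48.5% in place of 17.9% in G-K562 against V-K562, and 48.0% in place of 33.2% between them, and the median log2 change of all regions in G-K562 went from -0.096 to 0.188.

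Leaving out 1 library at a time, genes called in B-K562 ranged from 1 to 1 higher and 1 to 2 lower, in G-K562 from 8 to 9 higher and 1 to 1 lower, and between the lines from 8 to 10 higher and 1 to 1 lower. Regions ranged from 0 to 0 in B-K562, from 0 to 6 more open and 0 to 1 more closed in G-K562, and from 0 to 5 and 1 to 2 between the lines. RARB in B-K562 ranged from -0.171 to 0.27, HOXC10 between the lines from -0.03 to 0.374 and HOXC11 from -0.22 to 0.178. Where 1 line had 2 libraries left, the spread was shared across lines.

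Libraries with the same replicate number did not deviate together in RNA (r from -0.0802 to 0.136). In ATAC-seq 8 of 9 such correlations were above 0, though small (r from -0.00523 to 0.0705). Since not every pair passed 0.1, the numbers were not taken to pair the samples, and the replicate block left all counts of calls as they were (1 and 1, 9 and 1, 9 and 1 genes, 0 and 0, 6 and 1, 5 and 1 regions), with HOXB9 and HOXC5 in G-K562 at adjusted p of 0.057 and 0.0609 by limma. Of results for single genes and regions, 1458 kept direction and side of the threshold across settings, 38 fell short of it, 7 passed it and 9 turned. Values near the filter limit what can be seen in HOXD and posterior HOXA.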

Other observations

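EVX2, a homeobox gene just beyond the posterior end of HOXD, was at 10, 7 and 18 in V-K562, 3, 7 and 7 in B-K562 and 2, 1 and 2 in G-K562, where HOXD8 and HOXD4 were higher. It was too low to be tested in either comparison with V-K562. HOXA-AS3, over HOXA6 and HOXA7, was at 0 in every V-K562 library and at 5, 3 and 9 in G-K562, and was not tested.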
